A study of Homo sapiens with 24 samples.

Results

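The cytoplasmic response to cycloheximide was measured in cells carrying a guide RNA against ERH. The members are set by the sample labels: the 3 cytoplasmic sgERH libraries treated with cycloheximide (CHX) and the 3 cytoplasmic sgERH libraries treated with the solvent, 6 of the 24 libraries of the series. The 6 cytoplasmic libraries of control cells, with a guide against the AAVS1 safe-harbour locus (sgAAVS1), gave the control values. These stand beside some of the results only. All cells were RKO, an established human colon carcinoma line, from a single-cell-derived clone with a doxycycline-inducible Cas9, and cells carrying a guide were sorted as a bulk population, so a library can hold edited and unedited cells in unknown proportion. Every group, controls included, received doxycycline at 100 ng/mL for 5 days. CHX at 25 µg/mL, dissolved in DMSO, or DMSO alone was then given for 4 h, the cytoplasm was separated from the nuclei with a mild detergent, and polyadenylated RNA was read from both ends.

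CHX binds the ribosome and stops elongation. Because nonsense-mediated decay (NMD) recognises premature stop codons only on translated mRNAs, a block of translation also stops NMD, and mRNAs that NMD normally removes accumulate. Many short-lived mRNAs, above all those of immediate early genes and inflammatory genes, are also known to build up when protein synthesis stops, since their decay and the loss of their transcription both depend on newly made protein. ERH is a small conserved nuclear protein found together with splicing and mRNA export factors.

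Levels are given as counts per 1e+06 counts (CPM) after TMM scaling, so they are shares of each library and not amounts per cell, and no spike-in gave an absolute scale. A feature was called higher or lower where the log2 fold change reached 1 in size and the edgeR quasi-likelihood test, adjusted by Benjamini-Hochberg over all features tested, gave p no larger than 0.05. Log2 fold changes (CHX against DMSO) carry their standard error. The labels call the replicates biological but say no more of their origin, and p-values here measure only how far these libraries spread. The sgERH libraries held 44 to 60.5 M counts (1 M = 1e+06) with DMSO and 48.3 to 64.2 M with CHX. Mitochondrial mRNAs took 5.66 to 6.84% of counts with DMSO and 4.69 to 5.30% with CHX, and the 10 most abundant genes 7.27 to 8.25% and 5.77 to 6.32%. The sgERH CHX replicate 2 lay somewhat apart from its group on the first principal component of the 12 cytoplasmic libraries (18.9, against 23.4 and 23.7 for the others). Without it, 1182 genes were called higher and 306 lower, against 1153 and 303 with it.

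ERH, the targeted gene (ENSG00000100632, chr14:69380128-69398299, GRCh38, minus strand), was read first in all 12 cytoplasmic libraries. With DMSO the sgERH libraries held 72.9, 86.9 and 59.4 CPM and the sgAAVS1 libraries 137, 158 and 152 CPM. With CHX the sgERH libraries held 68.4, 81.0 and 61.6 CPM and the sgAAVS1 libraries 118, 122 and 107 CPM. Every sgERH library lay below every sgAAVS1 library of the same treatment. Within sgERH cells the DMSO and CHX libraries overlapped, with a log2 fold change of -0.05 ± 0.11 (adjusted p = 0.731). No protein was measured in these files.

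With CHX 1153 of the 16130 genes tested were called higher (7.15%) and 303 lower (1.88%), while the median log2 fold change of all genes was -0.01. The higher genes had a median log2 fold change of 1.52, and 321 of them changed more than 4-fold, against 29 of the lower genes, whose median was -1.25. Much of this count came from weakly expressed genes: the 10706 genes that averaged 5 CPM or more gave 443 higher and 154 lower, and 57 of the higher genes had no more than 3 counts over the 3 DMSO libraries together. Protein-coding genes made up 77.5% of the genes tested but 57.8% of those higher and 60.7% of those lower, and long non-coding RNA genes 17.1%, 36.3% and 27.1%.

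**Figure D1:**
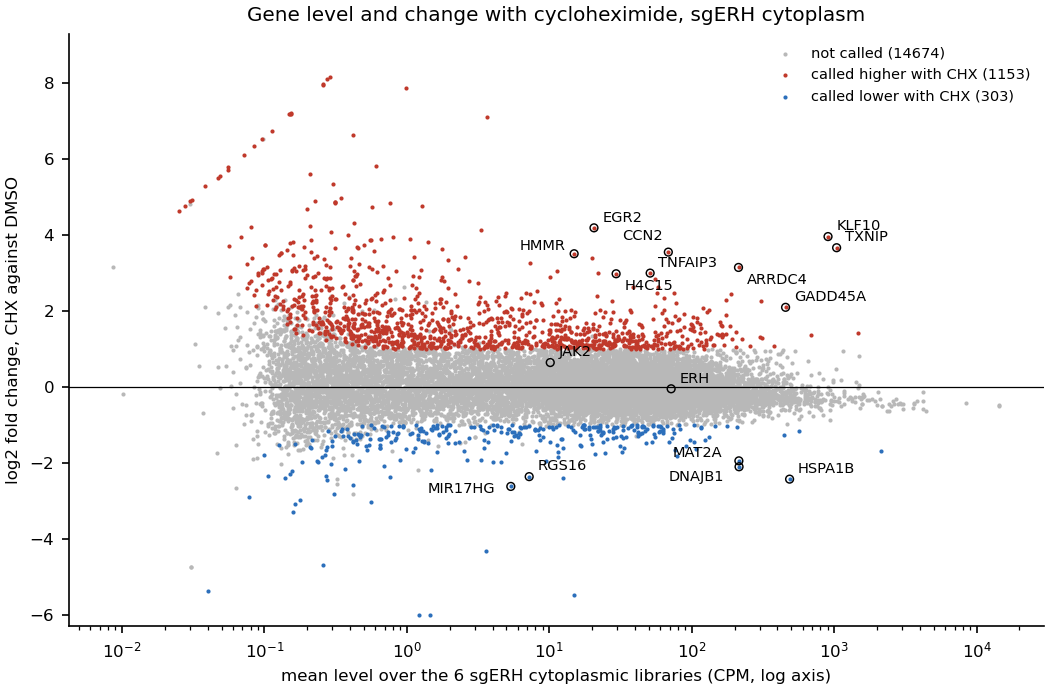
Log2 fold change of CHX against DMSO (vertical axis) for each tested gene against its mean level over the 6 sgERH cytoplasmic libraries (CPM, log axis), with called genes coloured and 16 genes ringed and named. Called increases reach to abundant genes such as KLF10 and TXNIP, called decreases among abundant genes are fewer, and 2 genes beyond the axis are drawn at its lower edge at -6.

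The increases of greatest size above a mean of 5 CPM were led by immediate early genes, which answer growth signals within minutes. EGR2, a zinc-finger transcription factor (ENSG00000122877, chr10:62811996-62819167), held 2.37, 2.21 and 1.84 CPM with DMSO and 38.1, 36.8 and 42.2 CPM with CHX. The CHX libraries all lay far above the DMSO libraries, 18.2-fold by the fit (4.19 ± 0.11, adjusted p = 5.53e-14). KLF10, a Krüppel-like factor induced by TGF-beta (ENSG00000155090, chr8:102648784-102655725), went from 110, 112 and 107 CPM to 1736, 1601 and 1769 CPM (3.96 ± 0.05, adjusted p = 1.29e-17). CCN2, a secreted matrix protein and a target of YAP, rose from 10.8 ± 1.03 to 126 ± 6.44 CPM (SD, n = 3; 3.55 ± 0.09). KLF2, a factor of quiescence, rose from 2.58, 2.52 and 2.14 CPM to 20.3, 18.7 and 14.4 CPM (2.88 ± 0.14).

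TXNIP and ARRDC4 encode related alpha-arrestins that restrain glucose uptake, and both are targets of the nutrient-sensing factor MondoA. TXNIP (ENSG00000265972, chr1:145992435-145996579) held 142, 148 and 167 CPM with DMSO and 2021, 1870 and 1897 CPM with CHX (3.66 ± 0.06, adjusted p = 3.83e-16). ARRDC4 went from 41.6, 41.3 and 47.0 CPM to 400, 363 and 386 CPM (3.14 ± 0.07). In neither gene did the groups overlap. CCDC121, a coiled-coil protein gene, rose from 1.12, 1.55 and 1.5 to 12.1, 11.1 and 16.3 CPM (3.25 ± 0.16), and the zinc-finger gene ZNF763 from 2.25, 1.98 and 2.99 to 17, 17.9 and 25.7 CPM (3.06 ± 0.16).

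As a group, 62 of the 65 listed immediate early genes passed the filter on low counts, and 25 of them were called higher (40.3%, against 7.15% of all genes) and 2 lower, with a median log2 fold change of 0.64. Besides the genes above, those called higher included the AP-1 subunits FOS, FOSB, JUN and JUNB, the orphan receptors NR4A1 and NR4A3, and KLF4, KLF5 and KLF6. SIK1, a kinase that restrains CREB signalling, went the other way, from 23.2, 24.4 and 27.7 to 8.20, 7.37 and 9.83 CPM (-1.57 ± 0.11, adjusted p = 3.89e-09). SNAI1, a repressor of epithelial genes, fell from 11.1, 9.89 and 11.9 to 5.30, 4.64 and 4.99 CPM (-1.14 ± 0.10). Of the 16 MAPK phosphatases and feedback inhibitors, 2 were called higher (12.5%, against 7.15% of all genes) and 1 lower (6.25%, against 1.88%). These were DUSP10, which dephosphorylates p38 and JNK (2.00 ± 0.13), SPRY2, an inhibitor of receptor tyrosine kinase signalling (1.31 ± 0.06), and DUSP7, an ERK phosphatase (-1.11 ± 0.06).

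Of 37 NF-kB target genes, cytokines and chemokines tested, 16 were called higher (43.2%, against 7.15% of all genes) and 0 lower, with a median of 0.75. TNFAIP3, the ubiquitin-editing inhibitor of NF-kB also known as A20, held 11.5, 11.4 and 11.3 CPM with DMSO and 93.3, 78.7 and 100 CPM with CHX. The DMSO libraries were nearly equal and all CHX libraries lay several-fold above them (2.99 ± 0.09, adjusted p = 8.54e-13). NFKBIA, which encodes the inhibitor IkB-alpha, and the chemokine genes CXCL1, CXCL2, CXCL3 and CXCL8 were among those called higher. The chemokine gene CCL20 (0.131, 0.136 and 0.131 to 0.900, 1.37 and 1.02 CPM, 3.02 ± 0.38) and TNFRSF9, a costimulatory receptor (3.11 ± 0.51), rose from very low levels. CXCL11, an interferon-inducible chemokine, had 2 counts over the DMSO libraries and 35 over the CHX libraries, a depth-scaled ratio of 16.4 with a 95% counting interval of 4.21 to 141. Among the interferon-stimulated genes, 7 of 47 were called higher (14.9%, against 7.15% of all genes) and 0 lower, and the median was 0.06. The 7 were led by the GTPase gene GBP2. It held 1.76, 1.07 and 1.71 CPM with DMSO and 8.30, 6.66 and 10.5 CPM with CHX (2.48 ± 0.21). IFIT2 rose from 1.71, 2.57 and 2.27 to 6.19, 5.98 and 9.06 CPM (1.70 ± 0.23). The call for GBP5 (1.89 ± 0.70) was lost when any of 5 of the 6 libraries was left out.

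**Figure D2:**
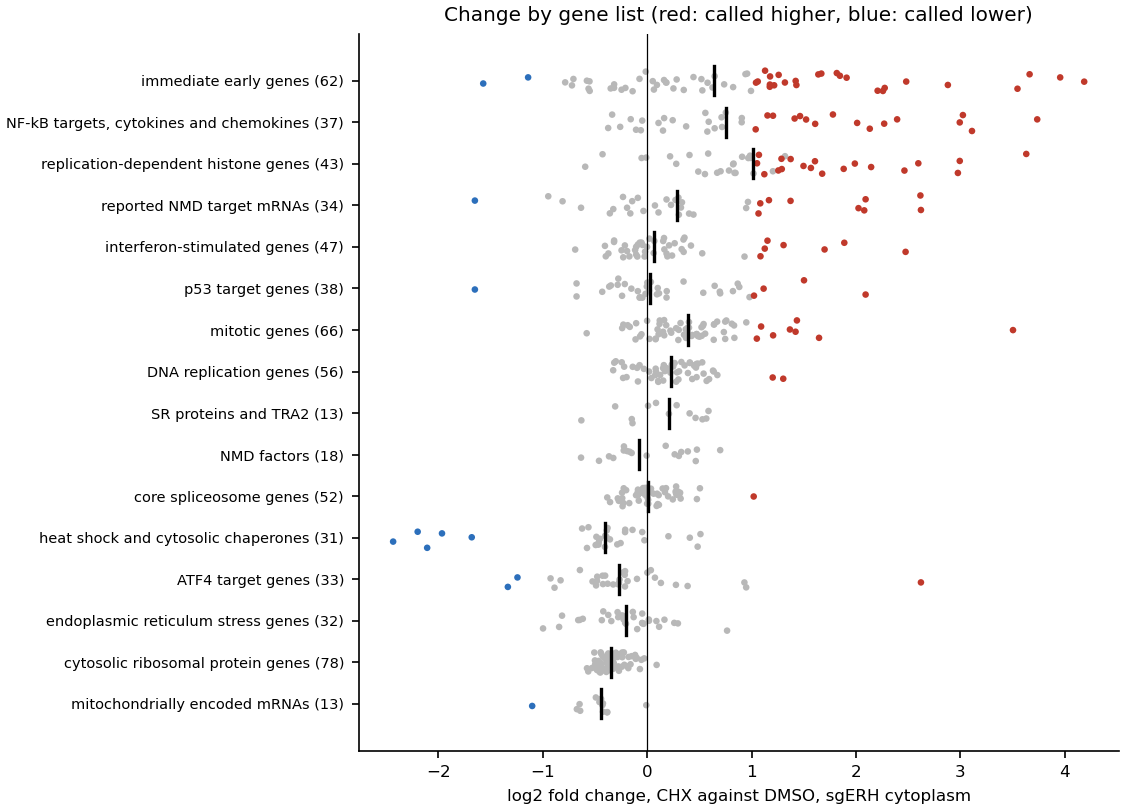
Log2 fold change of CHX against DMSO in sgERH cytoplasm (horizontal axis) for the tested genes of 16 lists (number tested in parentheses); each point is a gene, red called higher, blue called lower, grey not called, and the black bar is the median of the list. Histone, NF-kB and immediate early genes have medians of 1.02, 0.75 and 0.64, whereas ribosomal protein genes and mitochondrial mRNAs lie almost wholly below 0.

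Replication-dependent histone genes encode the core and linker histones made in S phase, and their mRNAs mostly lack poly(A) tails, so these poly(A)-selected libraries hold only the polyadenylated or captured part. Of 59 listed genes 43 were tested, and 19 were called higher (44.2%, against 7.15% of all genes) and 0 lower, with a median of 1.02. Their summed level was 300, 297 and 318 CPM with DMSO and 572, 568 and 691 CPM with CHX. H1-3, a linker histone gene, rose from 0.164, 0.341 and 0.300 to 2.69, 3.21 and 3.95 CPM (3.63 ± 0.28, adjusted p = 2.06e-08). H4C15 rose from 8.30, 4.41 and 6.95 to 44.3, 50.5 and 62.3 CPM (2.98 ± 0.19) and H4C14 from 2.84, 5.55 and 6.50 to 31.7, 24.7 and 61.3 CPM (2.99 ± 0.33). The H4 genes encode the same protein from very similar sequences and H4C14 and H4C15 are near-identical, so the split of counts between copies is uncertain.

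Of 66 mitotic genes 56 had a log2 fold change above 0 (7863 of 16130 for all genes), the median was 0.39, and 8 were called higher (12.1%, against 7.15% of all genes) and 0 lower. HMMR, a microtubule-binding spindle protein, held 2.45, 2.25 and 2.53 CPM with DMSO and 27.7, 26.7 and 27.9 CPM with CHX (3.50 ± 0.08, adjusted p = 2.9e-14), with little spread in either group. The kinetochore gene CENPC went from 19.6, 23.1 and 19.2 to 66.2, 62.8 and 64.7 CPM (1.65 ± 0.07) and the kinesin gene KIF18A from 9.53, 10.2 and 9.82 to 26.6, 27 and 26.4 CPM (1.44 ± 0.07). CENPE, a kinesin that holds chromosomes at the spindle and a gene the study followed, rose from 22.8, 18.6 and 17 to 48.2, 47.3 and 39.7 CPM (1.21 ± 0.12, adjusted p = 2.42e-07). Among 74 DNA repair genes 5 were called higher (6.76%, near the share of all genes) and 0 lower (median 0.25), among them RAD52, a recombination mediator (2.02 ± 0.12), the mismatch repair gene MSH3 (1.87 ± 0.10) and RNF168, a ubiquitin ligase at DNA breaks (1.24 ± 0.07). Of 56 DNA replication genes, 44 were above 0 and 2 were called higher (3.57%, below the share of all genes), WDHD1, a replisome factor (1.30 ± 0.06), and ORC1, of the origin recognition complex (1.20 ± 0.09).

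Heat shock genes were among the genes called lower. Of 31 heat shock and cytosolic chaperone genes tested, 5 were called lower (16.1%, against 1.88% of all genes) and 0 higher, with a median of -0.40. HSPA1B, an inducible HSP70 gene (ENSG00000204388, chr6:31827738-31830254), held 858, 767 and 838 CPM with DMSO and 148, 173 and 136 CPM with CHX. The groups lay far apart (-2.43 ± 0.09, adjusted p = 2.65e-12). HSPA1A, its near-identical neighbour, fell from 19.4, 15.1 and 10.8 to 2.83, 5.73 and 3.05 CPM (-1.96 ± 0.24), and the division of counts between the pair is uncertain. DNAJB1, the HSP40 partner of HSP70, fell from 355, 358 and 333 to 78.3, 95.3 and 69.3 CPM (-2.11 ± 0.08, adjusted p = 9.18e-12). HSPA6 (-2.20 ± 0.33) and HSPA8, the constitutive HSP70 (-1.68), were the other members called lower.

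MAT2A encodes the enzyme that makes S-adenosylmethionine. Its mRNA fell from 325, 341 and 356 to 81.0, 108 and 74.7 CPM (-1.95 ± 0.10, adjusted p = 1.95e-10). MIR17HG, the host of the miR-17-92 microRNA cluster, fell from 8.20, 8.48 and 11 to 1.33, 2.02 and 1.13 CPM (-2.63 ± 0.21). NACC2, a BTB-domain transcriptional repressor, held 127, 119 and 120 CPM with DMSO and 34.3, 38.3 and 31.4 CPM with CHX (-1.82 ± 0.07). AMER1, a regulator of Wnt signalling, fell by 1.86 on the log2 scale, the fucosyltransferase gene FUT4 by 1.71, the orphan nuclear receptor gene NR6A1 by 1.72 and RGS16, a regulator of G-protein signalling, by 2.37, with no overlap between the groups in any of them. RPL36A-HNRNPH2, a readthrough of neighbouring genes (18, 4.02 and 66.2 CPM with DMSO, under 1 CPM in each CHX library, -5.50 ± 0.86), and PKD1P5, a copy of PKD1 (-1.78 ± 0.14), share sequence with other genes, so their values are uncertain. Of 30 host genes of small RNAs, most of them snoRNA hosts, 0 were called higher and 3 lower (10%, against 1.88% of all genes). These were the microRNA host MIR17HG and the snoRNA hosts SNHG4 (36.1, 41.2 and 44 to 15.4, 16.8 and 15 CPM, -1.36 ± 0.10) and SNHG16 (-1.06 ± 0.08). SNHG16 fell under the size threshold without CHX replicate 3 (-0.983).

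**Figure D3:**
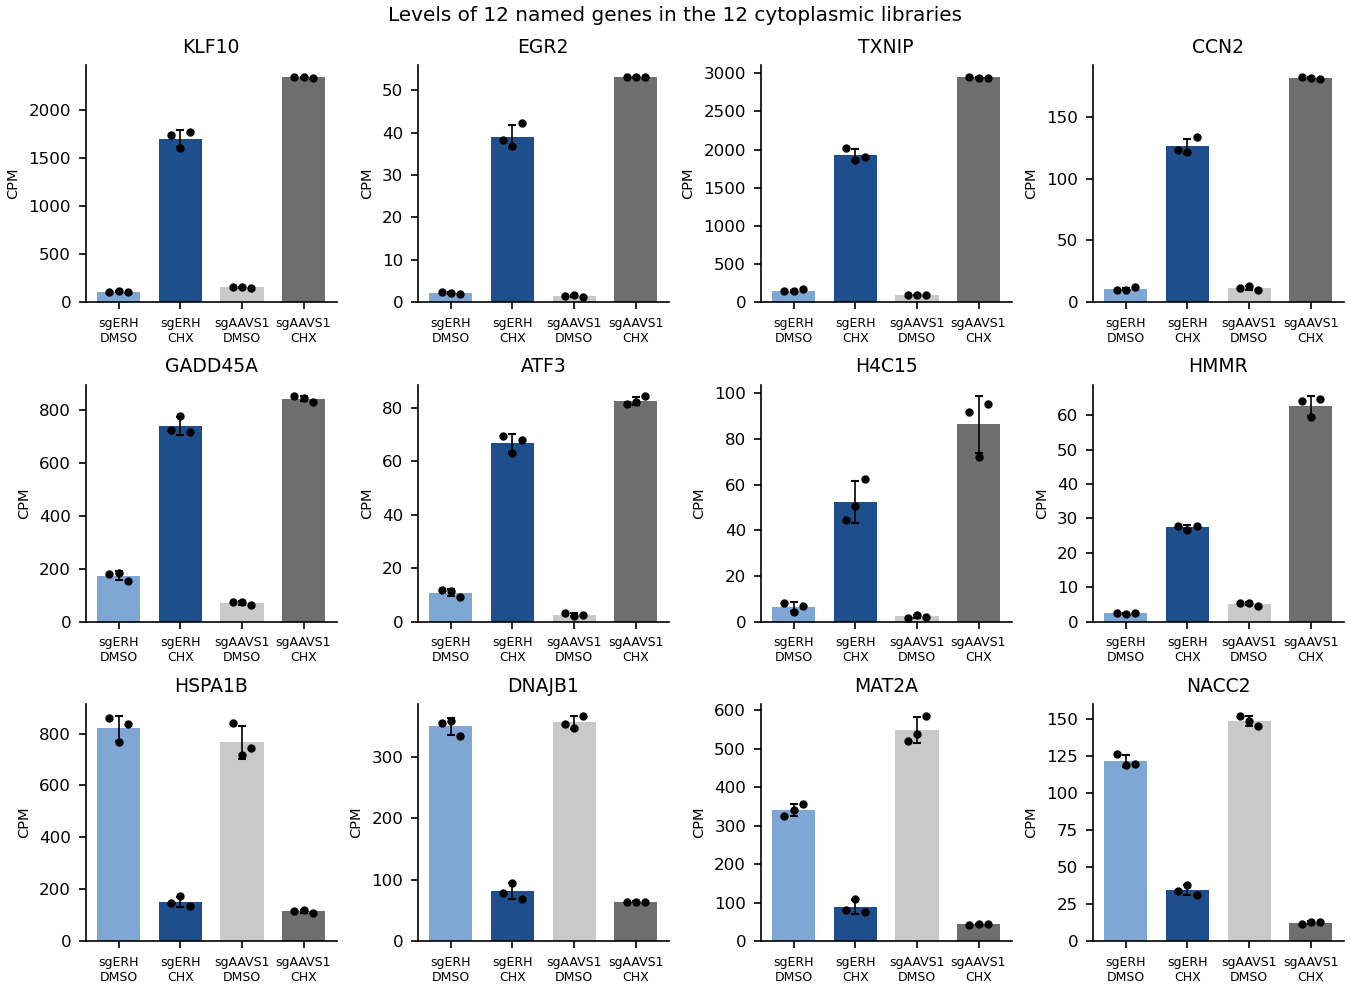
Levels (CPM, vertical axes starting at 0) of 12 genes in the 12 cytoplasmic libraries; bars show group means with SD as error bars, and each point is 1 of the 3 libraries of that guide and treatment. In sgERH cells KLF10 stood at 107 to 112 CPM with DMSO and 1601 to 1769 CPM with CHX, and HSPA1B at 767 to 858 and 136 to 173 CPM.

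The most abundant mRNAs were slightly lower as a share of the libraries. None of the 78 cytosolic ribosomal protein genes was called in either direction by edgeR or DESeq2, but 66 had an unadjusted p under 0.05, 77 had a log2 fold change below 0 and the median was -0.34. RPL3 held 3073, 3083 and 3031 CPM with DMSO and 2227, 2268 and 2225 CPM with CHX (-0.45 ± 0.04, adjusted p = 1.52e-07), a difference beyond the spread of the libraries but under the size threshold. PABPC1, the cytoplasmic poly(A)-binding protein, stood at 2916, 2755 and 2873 CPM and 1844, 1926 and 1720 CPM (-0.64 ± 0.05). All 13 mitochondrially encoded mRNAs lay below 0 (median -0.44) and 1 was called lower, MT-ND4L, a subunit of complex I (17.2, 26.5 and 33.9 to 11.6, 11.3 and 13.3 CPM, -1.10 ± 0.23). Without DMSO replicate 3 that value was -0.83, under the size threshold.

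Of the 15 genes that the study followed, 3 were called higher (20%, against 7.15% of all genes) and 0 lower. GADD45A, a growth-arrest gene of the p53 response whose mRNA NMD is known to degrade (ENSG00000116717, chr1:67685201-67688334), rose from 181, 185 and 154 to 725, 777 and 714 CPM (2.09 ± 0.07, adjusted p = 3.13e-12), with all CHX libraries above all DMSO libraries. IRF1, a transcription factor of the interferon response, rose from 17, 18.9 and 17.2 to 38.9, 35.6 and 43.4 CPM (1.15 ± 0.09, adjusted p = 2.91e-08). CENPE was the third.

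JAK2, the kinase behind the interferon-gamma receptor (ENSG00000096968, chr9:4984390-5129948), held 8.41, 7.84 and 7.57 CPM with DMSO and 12.9, 12.4 and 11.7 CPM with CHX. The groups did not overlap, but the log2 fold change of 0.64 ± 0.08 (adjusted p = 3.91e-06) stayed under the size threshold, and the sgAAVS1 libraries averaged 23 CPM with DMSO and 19.9 CPM with CHX. RAD50, of the DNA break repair complex MRN, showed a change of the same size (0.63 ± 0.05, 22.1, 21.8 and 21.8 against 35.1, 32.3 and 33.9 CPM). Of 18 interferon-gamma pathway genes tested, 1 was called higher (5.56%, below the 7.15% of all genes) and 0 lower. The receptor chains IFNGR1 (0.19 ± 0.07) and IFNGR2 (-0.34 ± 0.07) and the kinase JAK1 (-0.30 ± 0.05) were closer to 0 than JAK2. The same held for the lipid kinase PIK3C2A (-0.06 ± 0.06), the chaperone HSPA4L (0.41 ± 0.06), the ribosome biogenesis factor HEATR1 (-0.10 ± 0.05), the topoisomerase TOP2B (-0.20 ± 0.05) and the proto-oncogene MYC (0.28 ± 0.05).

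NMD was read from the transcripts that the GENCODE annotation marks as its targets. A premature stop codon usually triggers NMD when an exon junction lies well downstream of it, because the junction complex that the ribosome would have displaced stays on the mRNA. From genes named below, BRD2-212 was taken for its rise and the others as the most abundant NMD-annotated transcript of each gene. The shares given below sum all NMD-annotated transcripts of a gene. The last 27 coding bases and the stop codon (in capitals), read from the annotated GRCh38 transcripts, show where translation of each would end:
HNRNPH1-218: ttggcagaggagctggctttgagaggaTGA
SAT1-208: cactggactccggaaggttacagtctcTAG
CLK1-204: tcacatgggatgaaattgttgatacttTAG
HNRNPL-202: tctttcagaactgtgctaactcactgtTGA
SRSF2-208: cctgaagaggaaggagcggtgtcctctTAA
SRSF3-203: accatcatgtctcttctcaccaccctcTGA
SRSF6-202: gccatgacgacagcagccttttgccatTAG
BRD2-212: cagccccagaggattatcacaaaattaTAA

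The SRSF3-203 stop lay at chr6:36599852-36599854 (plus strand) in exon 4 of 7, 548 bases before the last exon junction and outside the exons of the canonical transcript, that is, in an exon added by alternative splicing. The SRSF6-202 stop (chr20:43459302-43459304, exon 3 of 7, 534 bases before the last junction), the SAT1-208 stop (chrX:23784305-23784307, exon 4 of 7, 239 bases) and the HNRNPL-202 stop (chr19:38841624-38841626, exon 7 of 14, 842 bases) were likewise outside the canonical exons. Those of HNRNPH1-218 (chr5:179618166-179618168, exon 4 of 12), CLK1-204 (chr2:200859726-200859728, exon 4 of 12) and BRD2-212 (chr6:32975400-32975402, exon 5 of 14) lay inside exons that code in the canonical transcript. The stops of HNRNPH1-215 and HNRNPH1-218 are the same. The SRSF2-208 stop (chr17:76736161-76736163, exon 2 of 4, 105 bases before the last junction) came after 221 codons. It lay in an exon of the canonical transcript but outside its annotated coding bases. Those bases leave out the stop codon itself, so this stop was not told apart from the ordinary stop of the gene.

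NMD-annotated transcripts took 3.10, 3.02 and 3.20% of all counts in the sgERH DMSO libraries and 4.49, 4.32 and 4.50% in the CHX libraries. Every CHX library lay above every DMSO library (two-sided exact permutation p = 0.1, the smallest that 3 against 3 allows), and the sgAAVS1 means were 2.90 and 4.53%. Of 71125 transcripts tested, 2626 were called higher (3.69%) and 928 lower (1.3%). Among the 9604 NMD-annotated transcripts, 824 were called higher (8.58%) and 50 lower (0.521%), with a median log2 fold change of 0.58. Ordinary protein-coding transcripts gave 2.56% higher and 1.37% lower with a median of -0.05, and transcripts annotated with a retained intron 2.31% and 2.06% with a median of -0.07. The 824 transcripts belonged to 693 genes, and 108 of them had no more than 3 counts over the DMSO libraries.

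The largest increases among NMD-annotated transcripts with a mean of at least 5 CPM started from 0 counts. BRD2-212, of the bromodomain chromatin reader BRD2, had 0 counts in all 3 DMSO libraries and 1436, 1485 and 1400 counts with CHX, at least 1350-fold higher when the DMSO libraries together are set to a floor of 3 counts (adjusted p = 4.44e-05). AASS-216, of a lysine-degrading enzyme (0 counts in each DMSO library, 716, 419 and 944 counts with CHX), and GOLGB1-235, of the Golgi protein giantin (0 counts, then 1033, 338 and 579 counts), were at least 649-fold and 609-fold higher. EPG5-215, of an autophagy tether, was at least 1194-fold higher in sgERH cells, where it had 0 counts with DMSO and 1640, 960 and 1223 counts with CHX, but 2 of the 3 sgAAVS1 DMSO libraries held it too. HNRNPA3-206 had 1519, 313 and 893 counts in the sgERH CHX libraries and 0 in the other 9 cytoplasmic libraries, with an adjusted p of 1.00 for the difference between cells. HNRNPH1-215 rose from 8, 32 and 11 to 4810, 4119 and 3717 counts, a ratio of 232 (95% counting interval 177 to 312), and NFKB1-212, of the NF-kB subunit p105, from 39, 0 and 23 to 522, 616 and 881 counts (adjusted p = 0.0197, but 0.061 without DMSO replicate 3 and 0.0628 without CHX replicate 3). ADAM9-213, of a membrane metalloproteinase, rose from 0, 42 and 19 to 715, 542 and 794 counts, and its call too was lost without 1 of 3 libraries. Reads are divided among isoforms by estimation, with an error that the counts do not carry, so a transcript at 0 may stand for reads given to a sister isoform.

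To compare isoforms within a gene, the share of each gene's counts on NMD-annotated transcripts was tested against its other transcripts. Of 4070 genes tested, 594 had a higher share with CHX (14.6%) and 12 a lower share (0.295%), and the median log2 change of the ratio was 0.53. The median share over these genes was 4.47, 4.20 and 4.59% in the DMSO libraries and 6.79, 6.55 and 7.17% in the CHX libraries. Of the 594 genes, 29 were also called higher as whole genes, a smaller share than the 7.15% of all genes. The other 565 were not called, and the median gene-level log2 fold change of the 594 was 0.10.

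HNRNPH1, a splicing repressor that binds G-rich sequence, gave the smallest p: its NMD-annotated share was 12.3, 13.7 and 11.4% with DMSO and 41.7, 40.7 and 42.2% with CHX (2.32 ± 0.12 on the log2 ratio scale, adjusted p = 9.69e-06). The share for SAT1, the rate-limiting enzyme of polyamine breakdown, went from 4.43, 4.29 and 3.90% to 35, 33.2 and 39.8% (3.68 ± 0.20). CLK1, a kinase that phosphorylates SR proteins, had 17, 14.9 and 21.1% with DMSO and 72.9, 72.5 and 79% with CHX (3.81 ± 0.26), so most of its cytoplasmic counts with CHX were on NMD-annotated transcripts. HNRNPL and HNRNPDL, RNA-binding splicing regulators, went from 0.896, 0.898 and 0.798% to 9.67, 8.41 and 11.7% and from 2.68, 3.81 and 3.44% to 16.8, 18.1 and 19.8%. ACSL3, an acyl-CoA synthetase of lipid droplets (2.80 to 15.6%), and DNAJC7, a co-chaperone (6.19 to 25.2%), stood with SRSF2, described next, among the 8 genes with the smallest p.

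**Figure D4:**
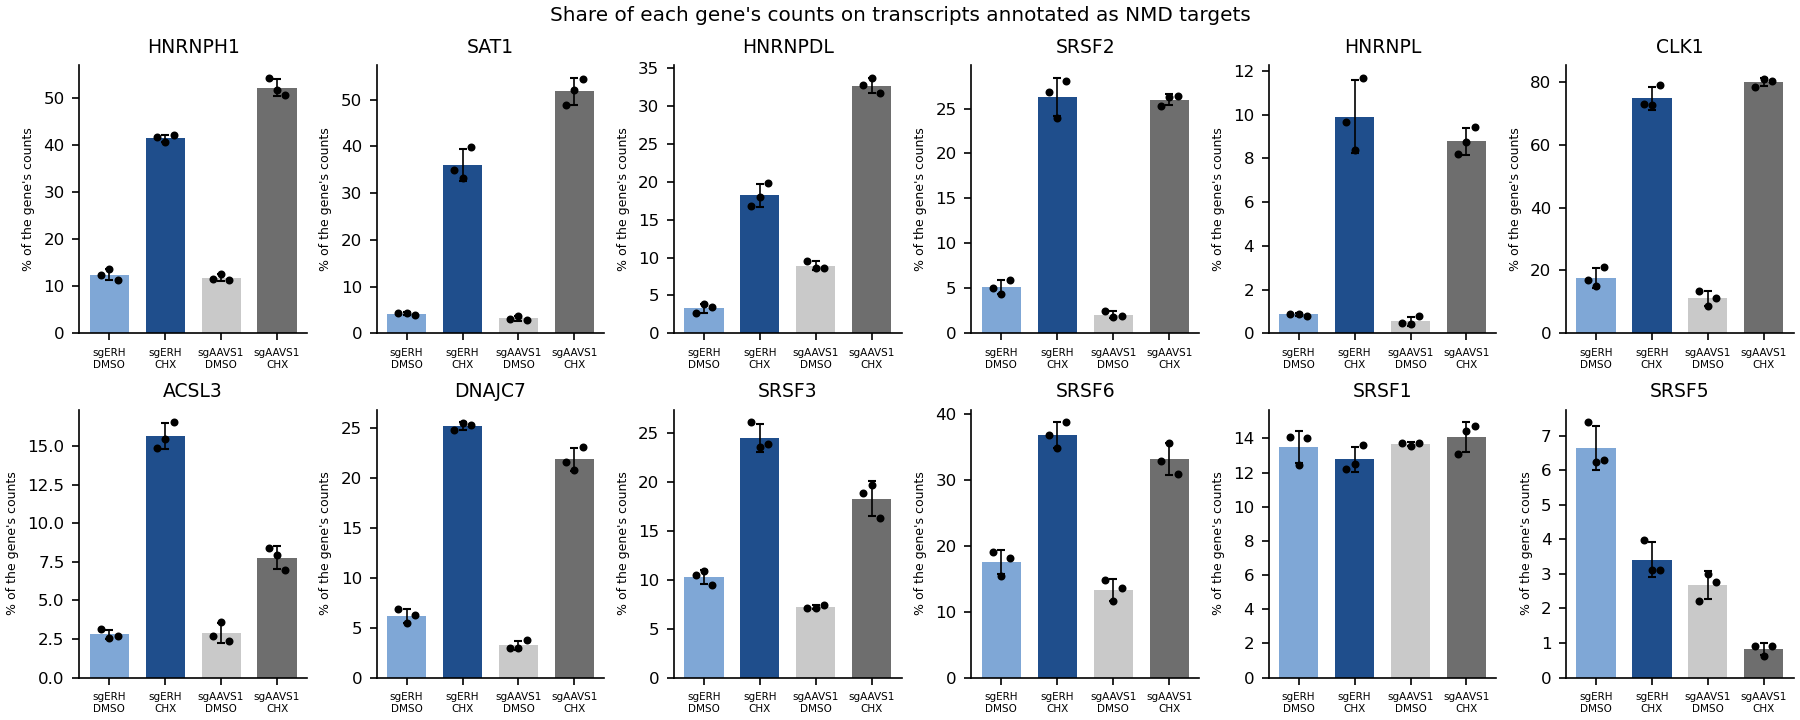
Share of each gene's counts on NMD-annotated transcripts (percent, vertical axes starting at 0) for 12 genes in the 12 cytoplasmic libraries; bars show the mean of each group with its SD, and each point is 1 library (n = 3). In CLK1 the sgERH share was 14.9 to 21.1% with DMSO and 72.5 to 79% with CHX, while in SRSF1 the groups overlapped and in SRSF5 the share was lower with CHX.

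SR proteins bind exonic enhancers and promote splicing, and many of their genes hold a poison exon, an ultraconserved exon with a stop codon through which the protein limits its own mRNA. Of 13 SR and TRA2 genes, 6 had a higher NMD-annotated share and 1 a lower one, against 14.6% and 0.295% of the 4070 genes tested. As whole genes, 0 were called by edgeR or DESeq2 (10 with an unadjusted p under 0.05, median 0.21). SRSF3 went from 10.5, 10.9 and 9.44% to 26.1, 23.6 and 23.9% (1.51 ± 0.12, adjusted p = 6.45e-05), SRSF6 from 19, 15.4 and 18.1% to 36.7, 34.8 and 38.7% (1.46 ± 0.16), and SRSF2 from 5.04, 4.37 and 5.96% to 26.8, 24 and 28.1% (2.73 ± 0.18), with no overlap in any of them. SRSF4 (1.31 to 8.14%), SRSF7 (14.3 to 25.0%) and SRSF10 (0.926 to 2.40%) were the others called higher, and SRSF7 fell under the size threshold without DMSO replicate 3, CHX replicate 1 or CHX replicate 2 (0.833, 0.956 and 0.996). SRSF1 showed 14.1, 12.4 and 14% with DMSO and 12.2, 12.5 and 13.6% with CHX (-0.09 ± 0.11, adjusted p = 0.63). In SRSF5 the share went down, from 7.39, 6.24 and 6.30% to 3.99, 3.11 and 3.12% (-1.02 ± 0.21), a call that was lost without DMSO replicate 1, CHX replicate 2 or CHX replicate 3 (-0.935, -0.956 and -0.958).

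Other splicing genes also had higher shares. Among 31 hnRNP and other autoregulated splicing factor genes with both kinds of transcript, 16 had a higher share and 0 a lower one (median 1.34). Of all genes tested for the share, 14.6% had a higher one. As genes, 2 of 43 were called higher (4.65%, below the 7.15% of all genes). These were PTBP2, the neuronal polypyrimidine tract protein (24.2, 24.2 and 23.4 to 66.5, 56.9 and 58.5 CPM, 1.34 ± 0.07), and RBM5, a splicing regulator (1.08 ± 0.05, but 0.93 with a length offset). Core spliceosome genes had a higher share in 7 of 16 (median 1.69) and translation factors in 6 of 23. Cytosolic ribosomal protein genes had one in 2 of 29, below the 14.6% of all genes. Of 11 CLK and DYRK kinase genes, 2 were called higher as genes (18.2%, against 7.15% of all genes), CLK1 and CLK4. They went from 23.8, 24.3 and 24.1 to 81.9, 86.2 and 82.3 CPM (1.79 ± 0.05) and from 15.4, 16.3 and 15.7 to 45.7, 45.0 and 39.7 CPM (1.46 ± 0.08).

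Reported NMD targets are mRNAs known from other work to be degraded this way. As whole genes, 9 of 34 were called higher (26.5%, against 7.15% of all genes) and 1 lower (2.94%, against 1.88%). Their median was 0.29. ATF3, a stress-induced transcription factor, rose from 11.7, 11.6 and 9.20 to 69.3, 63.1 and 67.9 CPM (2.62 ± 0.09, adjusted p = 2.37e-12) and GADD45B from 17.3, 15.5 and 15.8 to 97.6, 105 and 95.9 CPM (2.62 ± 0.06). ZMAT3, a p53-induced RNA-binding protein, fell from 158, 164 and 163 to 52.6, 54.1 and 47.8 CPM (-1.65 ± 0.06). Several of these genes are also immediate early or stress genes, so in a rise of the whole gene NMD and other mRNA turnover cannot be told apart. The 18 NMD factors themselves gave 0 calls by edgeR or DESeq2 in either direction (17 with an unadjusted p under 0.05), and the members with the smallest p were NBAS (0.70 ± 0.08) and SMG5 (-0.63 ± 0.07), both with an adjusted p under the threshold. Of 29 AU-rich element binding and mRNA decay factors, 4 were higher (13.8%, against 7.15% of all genes) and 1 lower (3.45%, against 1.88%). BTG1, which recruits deadenylases, stood at 1.13 ± 0.06. ZFP36 (1.08 ± 0.10), XRN1 (1.06 ± 0.09) and ZFP36L2 (-1.09 ± 0.09) were called too, and each fell under the size threshold when 1 library was left out (0.988 and -0.989 without DMSO replicate 3 for ZFP36 and ZFP36L2, 0.975 without CHX replicate 1 for XRN1).

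Intron retention was read as the IR ratio, which runs from 0, when every read is spliced, to 1, when none is. It sets the read depth inside an intron against that depth plus the spliced reads. Spliced reads are those spliced at the left or the right end of the intron, whichever count is larger. Reads that join this end to a more distant exon are counted too. Of 49272 introns tested, 125 in 101 genes were called more retained with CHX (0.254%) and 500 in 347 genes less retained (1.01%), and the median log2 change of intron depth over spliced reads was -0.27. Introns under a mean ratio of 0.05 in both groups were not called. The 500 introns had median IR ratios of 0.133 with DMSO and 0.0408 with CHX, and of 0.584 in the nuclei of sgERH cells with DMSO. Over all introns tested these were 0.0067, 0.00569 and 0.168. A call of less retention asks for a mean ratio of 0.05 and for a fall, so the cytoplasmic contrast was largely set by that rule. The nuclear libraries did not enter the calls, and the part of the rule in their value was not tested. The counts of introns called moved with single libraries, as given in the closing section.

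CLK1 had 2 of its introns called less retained, the introns on either side of exon 4. Its intron 3 of 12 (chr2:200860216-200861237, minus strand, 1022 bases) had IR ratios of 0.160, 0.240 and 0.211 with DMSO and 0.0401, 0.0373 and 0.0306 with CHX (-2.74 ± 0.22, adjusted p = 3.31e-05). Intron 4 went from 0.150, 0.191 and 0.160 to 0.0403, 0.0434 and 0.0392 (-2.22), and its other introns stayed under a ratio of 0.05 in every library. The reads spliced at an end of intron 3 rose from 252, 156 and 216 to 1579, 1319 and 1207. Its depth of 48.0, 49.4 and 57.7 with DMSO overlapped that of 65.9, 51.1 and 38.1 with CHX, so the ratio changed through the spliced reads. Reads that skip exon 4 are among those counted for introns 3 and 4. From the IR ratio alone, more skipping of exon 4 and better splicing of these introns therefore cannot be told apart. The CLK1-204 stop given above is in exon 4 of that transcript but lies between introns 4 and 5 of the canonical transcript. The mean NMD-annotated share of CLK1 was 17.7% with DMSO and 74.8% with CHX. The part of skipping in the change of the IR ratio was not tested. The donor and acceptor of intron 3, with exon bases in capitals, are GT and AG, as in nearly all human introns:
CLK1 intron 3 donor: GGGgtatgaacg
CLK1 intron 3 acceptor: ccgcccacttgacgtttccagAAG

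Among the introns with the largest decreases, intron 8 of 14 of PABPC1L, a poly(A)-binding protein paralogue (chr20:44930727-44932341), went from 0.653, 0.621 and 0.716 to 0.215, 0.191 and 0.243 (-2.83 ± 0.35), and an intron of SS18L1, a subunit of neuronal chromatin-remodelling complexes (chr20:62179357-62180168), from 0.683, 0.718 and 0.841 to 0.285, 0.304 and 0.262 (-2.85 ± 0.30). The SS18L1 intron overlaps a known exon. Decreases in ACBD6, ANKRD23, NAPEPLD and PIP5K1C rested on few spliced reads in DMSO (0 to 19 per library) and were lost when single libraries were left out. Of the increases, intron 21 of 24 of IPO7, a nuclear import receptor (chr11:9437975-9438079, 105 bases), went from 0.430, 0.437 and 0.481 to 0.734, 0.740 and 0.715 (1.73 ± 0.14, adjusted p = 3.31e-05), and here the intron depth rose from 320, 239 and 335 to 1231, 1021 and 834 while the spliced reads overlapped between groups. Intron 12 of 37 of CHD8, a chromatin remodeller (chr14:21408556-21408703), went from 0.0794, 0.0525 and 0.0976 to 0.224, 0.292 and 0.370 (2.36 ± 0.34). The increases in ZNF563 (0.440 to 0.737) and ZBTB11 (0.251 to 0.478) were in introns that overlap a known exon, and that of CCNG1 was lost whenever 1 library was left out. Neither of the 2 JAK2 introns tested was called: intron 16 (chr9:5078445-5080228) had 0.0548, 0.0852 and 0.153 with DMSO and 0.0247, 0.0421 and 0.0281 with CHX (-1.59 ± 0.81, adjusted p = 0.297), at a depth of under 4 in each library, and intron 10 averaged 0.0346 and 0.0350. None of the 11 PIK3C2A introns tested was called by edgeR (2 with an unadjusted p under 0.05, smallest adjusted p 0.202, and at most 0.117 as a group mean).

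In sgAAVS1 cells the same treatment called 2188 genes higher (13.6%) and 1017 lower (6.31%), from libraries that share none with the sgERH comparison. Of the 1153 genes called higher in sgERH cells, 989 were also called higher in sgAAVS1 cells (85.8% of the sgERH and 45.2% of the sgAAVS1 genes), and of the 303 lower genes 216 (71.3% and 21.2%). Genes called in opposite directions numbered 0 among those higher and 4 among those lower in sgERH cells. The difference between the effects, tested as an interaction, was called for 165 genes whose change was higher in sgERH cells (1.02%) and 421 whose change was lower (2.61%). Of the 164 genes called higher in sgERH cells only, 9 had such a difference, and of 1199 called higher in sgAAVS1 cells only, 221 had one. Among genes called lower, 17 of 87 in sgERH cells only and 102 of 801 in sgAAVS1 cells only had such a difference, with the larger fall in the cells where the call was made.

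**Figure D5:**
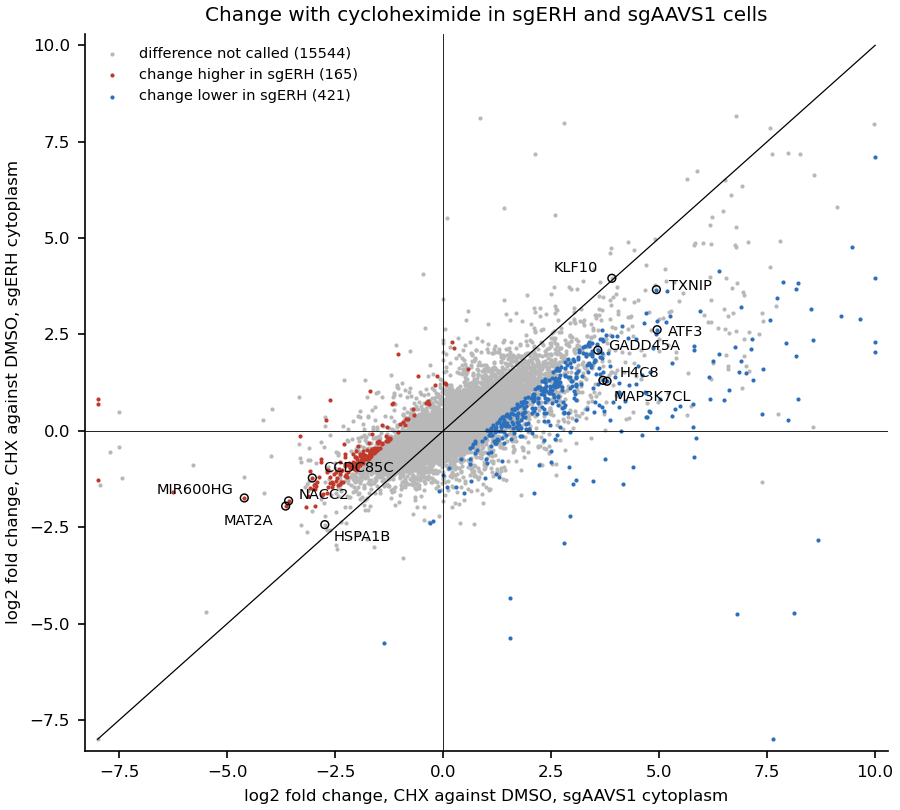
Log2 fold change of CHX against DMSO in sgERH cytoplasm (vertical axis) against that in sgAAVS1 cytoplasm (horizontal axis), with the line of equal change; genes whose difference was called are coloured, 11 genes are ringed and named, and 9 genes beyond the axes are drawn at the edges at -8 and 10. KLF10 lies on the line, TXNIP, GADD45A and ATF3 to its right and MAT2A and NACC2 to its left.

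Among genes with a smaller rise in sgERH cells, ATF3 reached 66.7 ± 3.25 CPM from 10.8 ± 1.42 CPM in sgERH cells and 82.7 ± 1.5 CPM from 2.68 ± 0.394 CPM in sgAAVS1 cells (difference -2.33 ± 0.14, adjusted p = 1.39e-08). GADD45A ended at 739 ± 33.8 and 841 ± 10.1 CPM but started at 173 ± 17.2 and 70.4 ± 6.48 CPM (-1.49, adjusted p = 7.7e-08). In both genes the sgERH DMSO libraries were all above the sgAAVS1 DMSO libraries, so the starting level moved with the difference, and its part was not tested. TXNIP ended lower in sgERH cells, at 1929 ± 80.6 against 2944 CPM, from 152 ± 13.1 against 96.2 CPM (-1.27). For KLF10 the difference was 0.05 ± 0.07 (adjusted p = 0.612).

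Of the histone genes, 35 of 43 were called higher in sgAAVS1 cells (median 2.34), against 13.6% of all genes. A change called lower in sgERH cells was found for 19 of 43, against 2.61% of all genes, and a higher one for 0 (median difference -1.10, against 0.03 for all genes). Their summed level with CHX was 568 to 691 CPM in sgERH and 827 to 872 CPM in sgAAVS1 cells, from 297 to 318 and 252 to 277 CPM with DMSO. H4C8 went from 8.15, 7.71 and 7.47 to 17.9, 17.2 and 21.9 CPM in sgERH cells and from a mean of 2.30 to 31.9 CPM in sgAAVS1 cells (difference -2.51, adjusted p = 1.17e-08). Of 62 immediate early genes, 15 had a change called lower in sgERH cells, against 2.61% of all genes, and 0 a higher one (median difference -0.37). FOS, FOSB, NR4A3 and KLF6 were among the 15.

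MAT2A and NACC2 fell less in sgERH cells. MAT2A ended at 88.1 ± 17.9 CPM from 341 ± 15.4 CPM in sgERH cells and at 43.8 ± 0.887 CPM from 549 ± 33.6 CPM in sgAAVS1 cells (difference 1.70, adjusted p = 3.34e-07). NACC2 ended at a mean of 12.5 CPM from 149 CPM in sgAAVS1 cells (1.76, adjusted p = 1.17e-08). Among the genes the study followed, JAK2 had a difference of 0.85 (adjusted p = 2.68e-05), PIK3C2A of 0.45 and IRF1 of 0.24 (adjusted p = 0.206), all under the size threshold, and the mean level of JAK2 was 12.4 CPM in sgERH and 19.9 CPM in sgAAVS1 cells with CHX.

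For the NMD-annotated share, the difference between cells was called for 10 of 4070 genes, all with a smaller log2 rise of the ratio of NMD-annotated to other counts in sgERH cells, which was 0.246% of those tested. On the scale of the share itself TRMT61B (17.8 to 31.25% in sgERH, 0 to 3.44% in sgAAVS1 cells) and GRSF1 (1.09 to 2.70% and 0 to 1.43%) rose by more in sgERH cells. In sgAAVS1 cells 1115 genes had a higher share (27.4%) and 41 a lower one (1.01%). The median share with DMSO was 4.42 ± 0.197% in sgERH and 3.34 ± 0.0897% in sgAAVS1 cells (SD of the 3 library medians), and 6.84 ± 0.312% and 6.28 ± 0.176% with CHX. SNRPB, a core Sm protein of the spliceosome, had 2.45 and 8.01% in sgERH and 0.602 and 10.8% in sgAAVS1 cells (difference -2.53, adjusted p = 0.000878). Among introns, 462 were more (0.938%) and 773 less retained (1.57%) with CHX in sgAAVS1 cells. The difference was called for 4 introns (0.00812%), each with a lower log2 change of intron depth over spliced reads in sgERH cells. On the scale of the IR ratio itself JMJD1C intron 11 rose by more in sgERH cells (means of 0.0655 to 0.130, against 0.00143 to 0.0445 in sgAAVS1 cells). For CLK1 intron 3 the mean IR ratio in sgAAVS1 cells was 0.0656 with DMSO and 0.0473 with CHX (difference -2.24, adjusted p = 0.0378).

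RKO identity was checked against markers. Of 14 colon epithelial markers 4 passed the filter: CDX2, the intestinal transcription factor (18, 17.1 and 19.2 CPM with DMSO, 13.3, 13.6 and 12.9 CPM with CHX), EPCAM and the keratins KRT8 and KRT18. KRT8 went the other way from the remaining markers (25.2, 24.7 and 22 CPM with DMSO, 29.7, 33.7 and 33.1 CPM with CHX, 0.42 against -0.19 to -0.45). The 4 had a summed level of 175 to 185 CPM with DMSO and 159 to 170 CPM with CHX. By edgeR and DESeq2 0 of the 4 were called, each with an unadjusted p under 0.05. CDX1, KRT20, LGR5 and CEACAM5 had 0 counts in all 6 libraries and CDH1 2 counts, so several defining markers of differentiated colon epithelium were absent. Fibroblast markers (5 of 11 tested, summed level 1.89 to 2.27 and 1.81 to 2.25 CPM) and leukocyte markers other than CD68 were near 0, with DCN, THY1, CD3E, MS4A1 and LYZ at 0 counts. CD68, a lysosomal protein made in many cell types, stood at 369 to 393 CPM with DMSO and 311 to 335 CPM with CHX. The 1 call in each of the latter lists was COL3A1, with 0 counts with DMSO and 15 with CHX (at least 4.69-fold), lost without CHX replicate 1, and ITGAM, at 0.126 and 0.815 CPM. In such bulk libraries fewer cells with an mRNA and less of it per cell cannot be told apart.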

How the data were processed

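RNA-seq libraries of RKO cell fractions were analysed from tables deposited by the authors. The transcript table holds estimated counts per transcript, which the authors made with salmon from paired-end reads for 252894 annotated transcripts (GRCh38). These were summed to 62754 genes and rounded. The authors' intron tables, made with IRFinder in its directional mode, hold counts of spliced reads, a depth (coverage signal) inside each of 233113 introns, and the IR ratio, a fraction from 0 to 1. The strand setting of the transcript counting is not given in the sources used here, so antisense partners cannot be told apart. Deposited transcript lengths served as an offset in 1 alternative, and the authors' TPM table was not used. The submitters' processing notes name fastp 0.23.4, SAMtools 1.16.1, bedtools 2.30.0 and DESeq2 1.28.0 among other tools. No pair among the 24 libraries held identical values.

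Genes and transcripts passing filterByExpr (minimum count 10) in the 12 cytoplasmic libraries were TMM-scaled and fitted together with edgeR 4.0.16 (R 4.3.3, limma 3.58.1), 1 term per group without a replicate block. CHX was compared with DMSO in each cell population, and the difference of both effects as an interaction. NMD-annotated against other counts per gene (mean of at least 10 in each class) and intron depth against spliced reads (mean sum of at least 10, depth of at least 1 in a group) were fitted as ratios within libraries, and an intron called also needed a mean IR ratio of 0.05 in a group. Standard errors were derived from the log2 fold change and its F value. DESeq2 1.42.0 was an alternative, as were other size factors, filters, the 6 libraries alone, a replicate block and each library left out. The sgERH fits of genes and of NMD-annotated shares were tested on simulated counts, with 100 features at each set log2 size. At a set size of 2, 100% of genes and 84% of shares passed the adjusted p threshold. At a set size of 1, 100% of genes and 52% of shares passed it. False calls numbered 3 among genes and 3 among shares. The transcript and intron fits were not tested in this way. Counting intervals are exact 95% Poisson intervals and cover counting error only. A total of 44 to 64.2 M counts per sgERH library sets the precision.

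The members and 35 gene lists were chosen with earlier results of these data known, and lists support nothing on their own. Named were ERH, the genes the study followed, the 12 called genes of each direction with the largest change at a mean of 5 CPM or more, per list up to 3 called genes of each direction (or the 2 with the smallest p), 5 genes of each direction with the largest called difference, 8 NMD-annotated transcripts with the largest called increase, 8 genes with the smallest p for the NMD-annotated share beside all SR and TRA2 genes, 6 introns of each direction, 1 per gene, and the introns of JAK2 and PIK3C2A. A few members of this rule are not reported here. Other genes named as called belong to lists and were chosen after their values were seen.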

Additional observations from a re-analysis of the deposited data

Results flagged for a closer look

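Each result here was picked because the effect of CHX differed between sgERH and sgAAVS1 cells by the interaction test (edgeR quasi-likelihood, Benjamini-Hochberg over all features, 3 libraries per group). Values are differences in log2 fold change, sgERH minus sgAAVS1. Among named genes that rose in sgERH cells, ATF3 differed by -2.33, GADD45A by -1.49, GADD45B by -1.06, TXNIP by -1.27, BTG1 by -1.06, MAP3K7CL by -2.39 and the zinc-finger gene ZNF763 by -1.63. The histone genes H4C8, H4C15 and H1-3 differed by -2.51, -2.26 and -1.56. ARL14, an ARF-like GTPase gene with 0 counts in the sgAAVS1 DMSO libraries and 19.4 CPM with CHX (at least 1426-fold), went from 0.0506 to 7.24 CPM in sgERH cells. Its fitted difference of -6.08 depends on the prior count and was not called without sgERH DMSO replicate 3 (adjusted p = 0.0975).

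Among genes lower in sgERH cells, the decrease was smaller there for MAT2A (1.70), NACC2 (1.76), CCDC85C (1.81), FAM53B (1.69), the lncRNA MIR600HG (2.86), ZMAT3 (1.12), the amino acid transporter SLC7A5 (1.04, but 0.973 without sgAAVS1 DMSO replicate 3), HSPA1A (1.21, adjusted p = 0.0178) and the ribosome biogenesis gene RRP1B (1.18), which was not called in sgERH cells by itself. HSPA1A was lost without sgAAVS1 CHX replicate 2 or sgERH CHX replicate 2 (adjusted p = 0.0532 and 0.0604). SNAI1 differed by -1.13, with 6.35 and 6.30 CPM in sgAAVS1 cells. RPL36A-HNRNPH2 (-4.12) and RPPH1, the RNA of RNase P (-2.09), were lost without 1 and 8 single libraries respectively.

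For the NMD-annotated share, 10 genes differed: SNRPB by -2.53, SF1 by -1.61, RPL3 by -1.44, RPS9 by -1.63, DCAKD by -3.002, ERCC2 by -1.90, PPP1R2 by -2.02, MTDH by -5.53, GRSF1 by -9.08 and TRMT61B by -7.34. The last pair had 0% in sgAAVS1 DMSO libraries, so their fitted values depend on the prior count. The shares of MTDH were under 0.2% in every group. In SF1, a branch point binding protein, the share went from 7.57 to 19.6% in sgERH and from 1.95 to 15.2% in sgAAVS1 cells. In DCAKD it went from 13.4 to 29.4% and from 1.63 to 26.6%.

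Of introns, CLK1 intron 3 differed by -2.24, an HNRNPC intron that overlaps a known exon by -1.75, JMJD1C intron 11 by -4.03 and USP9X intron 19 by -8.32. The IR ratios of the HNRNPC intron were 0.0215, 0.0220 and 0.0217 with DMSO and 0.105, 0.0899 and 0.0747 with CHX in sgERH cells, and averaged 0.0115 and 0.147 in sgAAVS1 cells. JMJD1C intron 11 had 0.0669, 0.0630 and 0.0666 with DMSO and 0.142, 0.110 and 0.136 with CHX, against means of 0.00143 and 0.0445. USP9X intron 19 fell from 0.0851, 0.0993 and 0.106 to 0.0288, 0.0235 and 0.0240 and was at 0 in sgAAVS1 DMSO libraries, so that value is no measure of size.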

How the results depend on the processing

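With genes averaging 5 CPM or more alone in the fit, 505 were higher and 129 lower. DESeq2 called 4425 transcripts higher and 1976 lower, and 1164 genes higher and 292 lower. With an IR ratio minimum of 0.1, 59 introns were more and 307 less retained, and leaving out each library in turn gave 55 to 103 and 245 to 321. Leave-outs gave 1025 to 1230 genes higher and 256 to 308 lower, 1878 to 2339 and 653 to 847 transcripts, and 418 to 579 and 9 to 16 NMD-annotated shares. ERH turned direction without sgERH DMSO replicate 2 or CHX replicate 3 (0.087 and 0.054, range -0.167 to 0.087). It was not called in any of them, and the cause was not tested. Of 167 named values, which hold genes, some in more than 1 comparison, and transcripts, 166 kept their call and direction under DESeq2 and 167 under other size factors. Without sgERH DMSO replicate 3, 13 of 188 named values lost their call, the most for any library. DDX27, an RNA helicase gene at 0.99, passed the size threshold under 7 alternatives.

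Same-numbered sgERH libraries deviated together with correlations of -0.078, 0.347 and 0.357, so the numbers were not taken as pairing. With a replicate block, 1153 genes were higher and 293 lower, 2209 and 766 transcripts, 540 and 12 NMD-annotated shares and 119 and 438 introns, and 1 named call was lost, the CCNG1 intron (3.38, adjusted p = 0.0731). Several intron calls rested on under 20 spliced reads per library.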

Other observations

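Beside 7.15% of all genes called higher and 1.88% called lower, 1 of 33 ATF4 target genes was higher (3.03%) and 2 were lower (6.06%, median -0.27), the higher one ATF3 and the lower ones SLC7A5 (190, 179 and 203 to 74.8, 75.5 and 76.6 CPM) and CHAC1, a glutathione-degrading enzyme (2.42, 3.05 and 2.89 to 1.00, 1.18 and 1.36 CPM). None of 32 endoplasmic reticulum stress genes was called by edgeR or by DESeq2 (20 with an unadjusted p under 0.05, median -0.21), with the sensor kinase gene ERN1 at 0.77 and HERPUD1, of protein degradation, at -0.81. Among 38 p53 target genes 4 were higher (10.5%) and 1 lower (2.63%, median 0.03), with PLK2, a polo-like kinase gene, at 1.503 ± 0.23. Of 33 cyclins and cell-cycle regulators, the inhibitor gene CDKN1B rose from 21.9, 24.2 and 21 to 48.8, 49.4 and 50.9 CPM. SKP2, which encodes the ligase subunit that marks its protein for destruction, fell from 44.7, 47.9 and 49.4 to 17.2, 22.3 and 15.6 CPM.

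Translation factors (0 of 46), ribosome biogenesis factors (0 of 57), cholesterol genes (0 of 30) and exon-junction, TREX and ERH-partner genes (0 of 37) held no call in either direction by edgeR or DESeq2, while 39, 37, 14 and 26 of them had an unadjusted p under 0.05, with medians of -0.27, -0.10, 0.00 and -0.02. The translation initiation helicase gene EIF4A2 stood at 0.79 ± 0.06 and the export complex gene THOC2 at 0.91 ± 0.06. Of 25 hypoxia-inducible genes 1 was called higher (4%, below the 7.15% of all genes). This was ADM, a vasodilator peptide, which rose from 21, 21.1 and 19 to 89.0, 86.6 and 92.4 CPM. Of 52 core spliceosome genes 1 was called higher (1.92%, also below the share of all genes), PRPF3 (1.02 ± 0.05). The summed level of 12 nuclear-retained RNAs tested, of 15 listed, was 1894 to 2009 CPM with DMSO and 1450 to 1496 CPM with CHX.

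Genes called higher that code for protein were expressed at a median of 4.23 CPM with DMSO, against 31.7 CPM for all protein-coding genes tested and 25.8 CPM for those called lower. The DMSO level enters the fold change, and a gene could pass the low-count filter through the CHX libraries alone. A low DMSO level among genes called higher was therefore partly set in advance. Genes with a single exon made up 2.45% of protein-coding genes tested, 5.56% of those higher and 8.15% of those lower.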
